A study of Rattus norvegicus with 241 samples.

Results

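The cells described here are 94 collagen-high cells among the 15982 cells of the sorted basal fraction of SD rat mammary glands. A cell was taken as collagen-high when it held at least 20 unique transcript counts (UMIs) of COL3A1, the alpha chain of type III collagen, and at least 3 UMIs of LUM, lumican. The study gave peripubertal virgin female rats a TGFβ type I receptor kinase inhibitor, LY2157299 (TGFBRi), or vehicle, and asked which mammary cells respond. All 9 rats were outbred Hsd:Sprague Dawley SD animals dosed by oral gavage 2 times a day for 10 days, 6 with 75 mg/kg of TGFBRi and 3 with vehicle, and their glands were taken on day 0, when dosing stopped. Basal cells were sorted as CD24+ CD29high from cells lacking CD31 and CD45, sequenced from the 3' end, and kept by the authors only when they held no PTPRC read and at least 2 keratin reads. Each rat gave 1 library, so the rat is the replicate.

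Fibroblasts are the stromal cells that secrete and remodel the collagenous matrix around mammary ducts. They make fibrillar collagens, the small proteoglycans that space collagen fibrils, and growth factors that epithelial cells respond to. Mammary basal cells are keratin-positive, contractile epithelial cells that rest on a basement membrane. TGFβ is a classical inducer of collagen synthesis in fibroblasts, and its signal passes through the receptor kinase that TGFBRi blocks.

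The cells were selected on their COL3A1 and LUM counts, so the levels of these genes, and every comparison of gene levels with the other cells, are a description. The collagen-high cells held a median of 561 COL3A1 UMIs, from 20 to 2525, and a median of 21 LUM UMIs, the lowest being 3. The cell nearest the COL3A1 threshold had 20 COL3A1 and 6 LUM UMIs, and 4 cells had exactly 3 LUM UMIs with 51 to 121 COL3A1 UMIs. Outside the rule were 32 cells that passed on COL3A1 and held under 3 LUM UMIs. Of these, 25 held no UMI of DCN, decorin, and 7 held at least 5. A further 3 cells passed on LUM and not on COL3A1. The third gene proposed as a marker, PROCR, had a median of 1 UMI per collagen-high cell, from 0 to 62.

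The collagen-high cells were deep, with a median of 15463.5 UMIs and 3157.5 genes, from 996 to 48207 UMIs. In the 8 rats with at least 2 of them, the median per rat was 10226 to 27744 UMIs, against 4363.5 to 12216 in the other cells of the same tables. The rule counts UMIs that are not scaled to depth, so a deep cell passes it more easily. The part of the rule in this depth was not tested. The single collagen-high cell of TGFBRi rat 13 held 1198 UMIs and sets many of the lowest and highest values below. At most 5 cell barcodes were shared between any of the 36 pairs of tables, and 1 collagen-high cell carried a barcode found in another table. Scrublet, a doublet caller, marked 0 to 2.41% of the cells of a table and none of the 94. None of the 94 lay among the 6% of cells with the highest doublet scores of a table.

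All rats held at least 1 collagen-high cell, but their share varied widely. In vehicle rats 1, 2 and 3 there were 2 of 766 cells (0.261%), 15 of 581 (2.58%) and 2 of 1892 (0.106%). In the 6 TGFBRi rats the share ran from 0.178% (1 of 563 cells, rat 13) to 1.35% (40 of 2963, rat 12), with a median of 0.444%. The remaining TGFBRi rats were rat 9 with 12 cells, rat 10 with 9, rat 11 with 6 and rat 14 with 7. The highest and the lowest share were both in vehicle rats, so the groups overlapped. The mean was 0.526% ± 0.431 (SD, n = 6) in TGFBRi rats and 0.983% ± 1.39 (SD, n = 3) in vehicle rats, a difference of -0.457 percentage points (two-sided exact permutation test, p = 0.631; the smallest p that 84 arrangements allow is 0.0119). Without vehicle rat 2 the difference turned to 0.343 points (exact p = 0.357). Exact 95% binomial intervals of single rats reached from 1.45 to 4.22% in vehicle rat 2 and from 0.966 to 1.83% in TGFBRi rat 12, and cover counting error only. The rats thus differed from one another beyond counting error without a difference between the groups that held. The threshold on COL3A1 could itself move with treatment, and a rule on DCN alone (at least 5 UMIs) gave a difference of -0.357 points (exact p = 0.726). The plot of shares by rat shows these values beside those of whole glands.

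**Figure D1:**
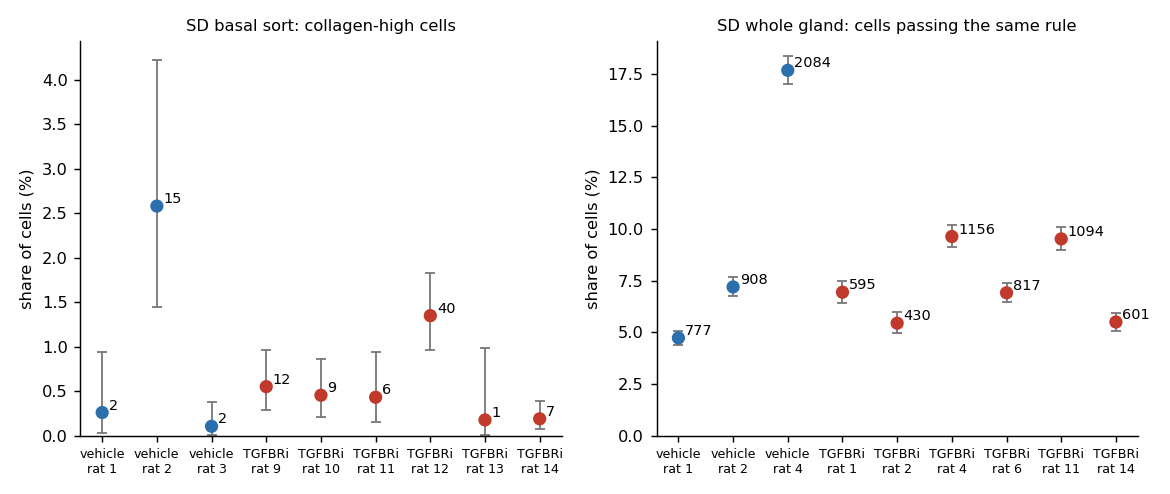
Share of cells (%) that passed the rule of at least 20 COL3A1 and at least 3 LUM UMIs, by rat, in the SD basal sort (left) and in SD whole glands (right). Points are single rats (blue for vehicle, red for TGFBRi), bars are exact 95% binomial intervals, and the number of cells passing is printed beside each point. Vehicle rat 2, at 2.58%, and TGFBRi rat 12, at 1.35%, stand above the other 7 rats of the basal sort.

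Keratin counts divided the collagen-high cells into a large set and a small one with no cell between them. A set of 86 cells held 2 to 7 keratin UMIs, of which 43 held exactly 2, the minimum that the authors' filter allows. The other 8 cells, from 6 rats, held 50 to 223 keratin UMIs. Among the remaining cells of the sort only 4.43% held 2 to 5 keratin UMIs, against 89.4% of the collagen-high cells, and the collagen-high cells made up 10.7% of all 788 basal-sort cells in that range. The division at 10 keratin UMIs was set after these values were seen.

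The keratin UMIs of the large set differed in make-up from those of the other cells. KRT10, a keratin known from suprabasal epidermis, gave 97 of its 242 keratin UMIs (40.1%), or 0.696 per 10000 UMIs, against 0.135 per 10000 in the other cells of the sort. Without KRT10, 42 of the 86 cells would have held under 2 keratin UMIs, so the authors' filter itself selected in part on KRT10. Whole-gland cells that passed the same rule, made with another kit and under no keratin filter, held KRT10 at 0.244 per 10000. That was 9.15% of their keratin UMIs. The basal keratins were in the proportions of the surrounding cells: KRT15, KRT5 and KRT17 stood at 36, 10 and 56 UMIs, so that each KRT17 UMI came with 0.643 KRT15 and 0.179 KRT5 UMIs, against 0.638 and 0.183 in the other cells. The 8 cells with high keratin had 442 KRT17 and 4 KRT10 UMIs, and 0.561 KRT15 and 0.158 KRT5 UMIs per KRT17 UMI. Their KRT17 level was 27.0 per 10000 UMIs, that of the 86 cells 0.402 and that of the other cells 67.97. They resembled the large set in collagen, with a median of 581 COL3A1 and 158.5 DCN UMIs against 561 and 137. None of the 8 was called a doublet, and their scores lay at percentiles of 6.68 to 81.5 of their tables. Whether the keratin UMIs came from the cell, from free RNA or from an attached cell was not tested.

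**Figure D2:**
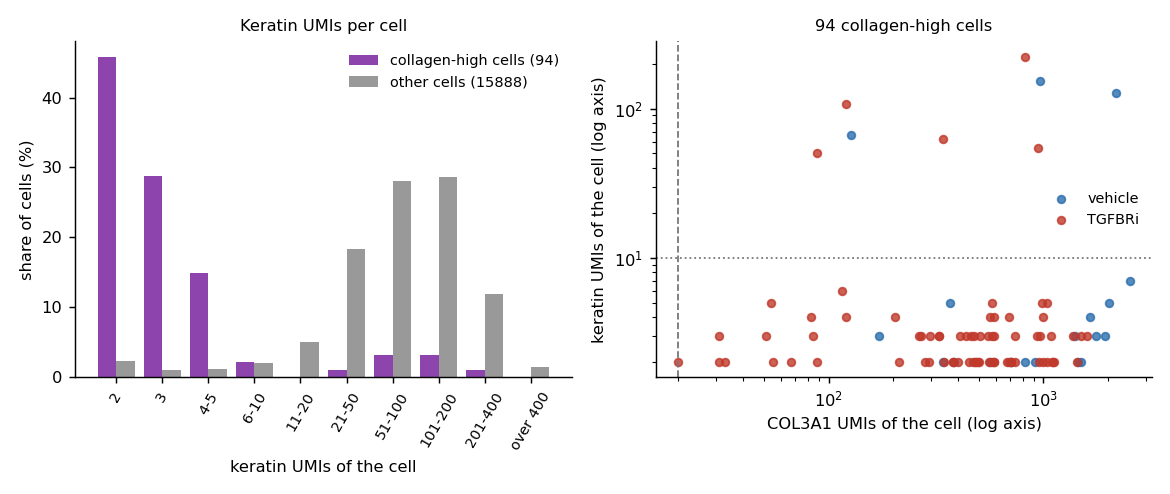
Keratin UMIs per cell. Left, the share of cells (%) in each range of keratin UMIs for the 94 collagen-high cells (purple) and the other cells of the basal sort (grey). Right, keratin UMIs against COL3A1 UMIs of each collagen-high cell on log axes (blue for vehicle, red for TGFBRi), with the COL3A1 threshold of 20 dashed and 10 keratin UMIs dotted. A total of 86 cells lie under the dotted line and 8 above 50 UMIs.

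The marker lists bore out the name fibroblast-like for the set as a whole. Levels are given as UMIs of a gene per 10000 UMIs of the cells summed per rat. Counts of genes that were higher or lower compare these levels with those of the other cells in each of the 3 rats with at least 10 collagen-high cells (TGFBRi rats 9 and 12, vehicle rat 2), with nothing added. The log2 ratio of a single gene is the median over these 3 rats with 0.5 UMI added, and that of a list is the median over its genes of the ratio of the summed UMIs of the 3 rats. All 9 fibroblast markers were higher in the collagen-high cells in each of these 3 rats, with a median log2 ratio of 10.77, and made up 6.74% of their UMIs against 0.00877% of those of the other cells. Over all 14585 genes with at least 10 UMIs, 15.4% were higher in all 3 rats and 42.9% lower, with a median log2 ratio of -0.39. Of these genes 2459 had no UMI in the few collagen-high cells, so that a rare gene easily counts as lower. With 0.5 UMI added before comparing, 5776 genes counted as higher and 3775 as lower, but 1729 of the former had no UMI in the collagen-high cells. Of the 9 basal markers none was higher and all 9 were lower, with a median of -4.57. KRT5 stood at 0 to 3.24 per 10000 in the collagen-high cells and 8.19 to 15.1 in the other cells. Of the 9 luminal markers none was higher and 8 were lower. No UMI of 5 of them, among these the keratin KRT18, was found in any collagen-high cell. KRT8 stood at 0.0932 per 10000 in the 86 cells of low keratin, 4.21 in the 8 of high keratin and 10.7 in the other cells. EPCAM stood at 0.0430, 1.65 and 6.09.

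Markers of endothelial and blood cells were few, and those of pericytes went both ways. CD3E, LYZ2, the lymphatic regulator PROX1 and the pericyte receptor NOTCH3 were at 0 in all 94 cells, as was PTPRC, on which the authors had filtered, and CDH5, the endothelial cadherin, had 2 UMIs. The endothelial list summed to 0 to 0.610 per 10000 over the rats and the leukocyte list to 0 to 0.492. In the other cells they summed to 0.0986 to 1.07 and 0.111 to 0.689. The pericyte list summed to 0 to 3.801, with medians of 1.63 in TGFBRi and 2.25 in vehicle rats. In the other cells its medians were 0.159 and 0.163. Of the 6 pericyte genes 3 were higher and 3 lower in all 3 rats. The channel subunits ABCC9 and KCNJ8 had 132 and 83 UMIs, and 43 cells held ABCC9, whereas RGS5, the common pericyte marker, had 1 UMI. Of the 4 collagen-high cells with under 5 DCN UMIs, 2 from TGFBRi rat 9 held no DCN, 11 and 12 COL1A1 UMIs, and 9 and 5 ABCC9 UMIs. Another, from TGFBRi rat 12, carried all 1056 UMIs of the lymphatic chemokine CCL21 and 2 DCN UMIs. These few cells passed the rule although the median over all 94 was 137 DCN UMIs.

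The genes of the sorting markers differed from each other. CD24 had a UMI in 6.38% of collagen-high cells and 43.6% of the other cells, although the former were deeper. ITGB1, which encodes CD29, had a UMI in 96.8% and 94.2%. In the luminal sort of the same rats, CD24 had a UMI in 93.4% of cells. RNA counts of CD24 do not measure the surface protein on which the gate was set.

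Fibrillar collagens and the proteins that process them were high, COL3A1 by the selection itself. COL1A1, the main chain of type I collagen, stood at 185 to 606 per 10000 over the 9 rats, with a median of 425. In the other cells it stood at 0.0373 to 0.977. The lowest rat of the first set therefore lay far above the highest of the second. Of 16 collagen genes, 12 were higher in all 3 rats and 3 lower, and together they made up 9.47% of the UMIs of the collagen-high cells against 0.299% elsewhere. COL3A1, on which the cells were selected, is counted in both, with 62988 UMIs. COL6A2, a chain of the microfibrillar type VI collagen, reached 7.47 to 14.8 against 0.184 to 0.543. The 3 lower genes included COL4A1 and COL4A2, the network collagens of basement membrane, with log2 ratios of -1.70 and -2.94, and COL17A1, which anchors basal cells, with -4.49. The other cells thus held more type IV and type XVII collagen per UMI.

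Of 14 genes that process collagen, 12 were higher. PCOLCE, which enhances cleavage of the procollagen propeptide, had a log2 ratio of 7.87, LOX, the crosslinking lysyl oxidase, 7.78, and SERPINH1, the collagen chaperone, 2.20. The other cells also held SERPINH1, at 2.49 to 5.07 UMIs per 10000. COL1A2, the partner chain of COL1A1, was counted at 298 UMIs in all collagen-high cells, 0.389% of the 76644 UMIs of COL1A1. In whole-gland cells that passed the same rule it was 0.261%. The cause was not tested.

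Other matrix genes were also high. DCN ran from 48.2 to 242 per 10000 over the rats against 0.00295 to 0.0607 elsewhere, with a log2 ratio of 11.07. FN1, fibronectin, stood at 6.90 to 70.7 against 0.0156 to 0.0653, and the fibrillin FBN1 at 4.08 to 52.2 against 0.218 to 0.503. Of 12 elastic fibre genes 10 were higher and none lower. FBLN2, also of the basement membrane zone, was among the 2 that were not. Among proteases and inhibitors, CTSK, the collagen-degrading cathepsin K, had a log2 ratio of 9.53, MMP2 3.99 and TIMP1 3.41. The laminin chain LAMA2 had 7.5, against -1.70 for COL4A1, so basement membrane genes went both ways, 4 of 8 higher and 2 lower.

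**Figure D3:**
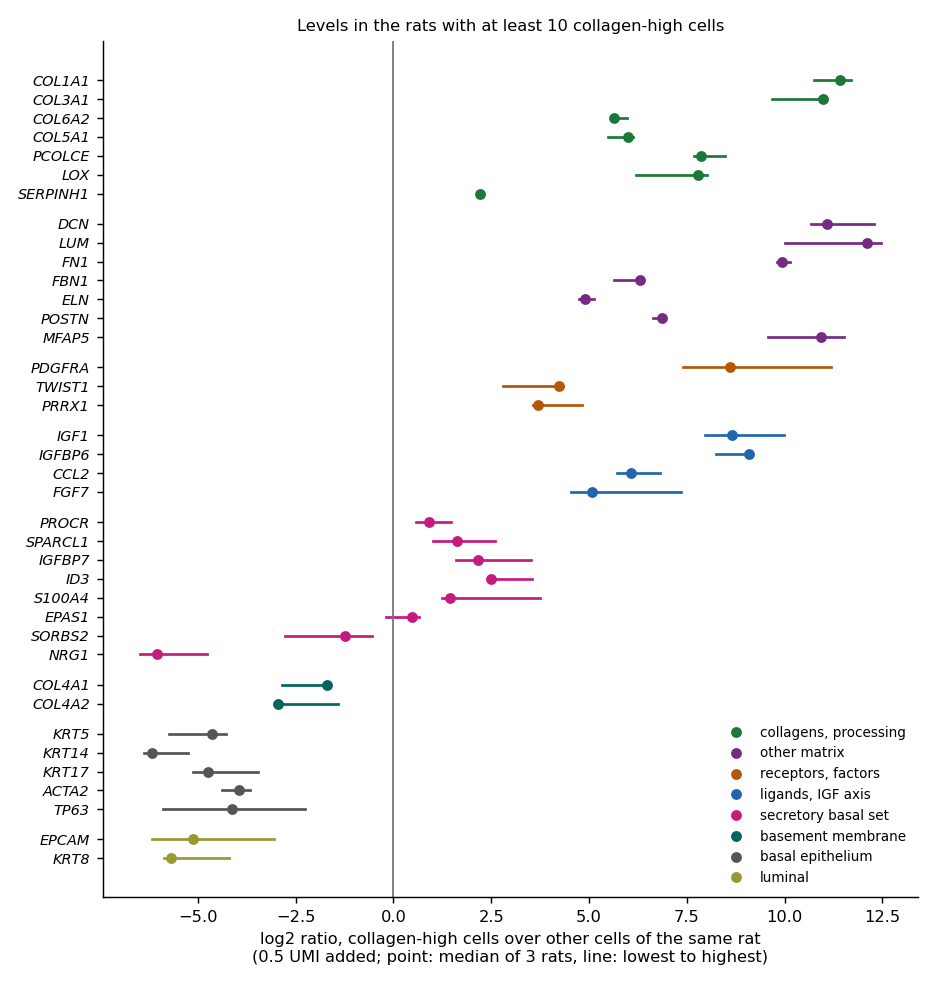
Levels in collagen-high cells against the other cells of the same rat, as log2 ratio of UMIs per 10000 with 0.5 UMI added. Points are medians and lines the lowest to highest value over the 3 rats with at least 10 collagen-high cells; colours give the gene group. Matrix genes lie to the right, with COL1A1 at 11.41, and basal keratins to the left, with KRT14 at -6.17. The cells were selected on LUM, at 12.10, and COL3A1, so the places of these genes follow from the rule.

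By the size rule applied to all genes, the 15 genes most in excess were C7, LUM, DPP4, COL1A1, MMP27, PCOLCE2, DCN, COL3A1, SFRP4, MFAP5, DPT, AKR1C14, AABR07054614.1, COL1A2 and MNDA. They included secreted regulators besides matrix: C7 is a terminal complement component, SFRP4 a secreted Wnt antagonist, and DPP4 a surface peptidase known from fibroblasts of the adventitia and fascia. C7, DPP4, MMP27, PCOLCE2, SFRP4, AKR1C14 and AABR07054614.1 had no UMI in the other cells of at least 1 of the 3 rats. Their places thus rest in part on the added 0.5 UMI. Summed over all rats, the level of C7 was 476 times that of the other cells, against 2817 times for LUM. The 5 most depleted were ARG2, KRT14, NRG1, CHD7 and CPM, with log2 ratios from -6.36 to -5.95. NRG1, the ERBB ligand neuregulin, had a UMI in 9.57% of collagen-high cells and 86.5% of the other cells. Complement was shared more widely: of 8 complement genes 6 were higher, with C1S at a log2 ratio of 5.22 and C1R at 3.50.

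Growth factors and chemokines differed by gene. Of 23 ligands, 10 were higher in all 3 rats and 7 lower. CCL2, the monocyte chemokine, stood at 8.35 to 168 per 10000 over the rats against 0.733 to 1.86. FGF7, a stromal growth factor for epithelium, had a log2 ratio of 5.07. Among the lower ligands were midkine (MDK, -3.33), pleiotrophin (PTN, -2.60) and the KIT ligand KITLG (-2.45), which the other cells held at 4.02 to 12.5 per 10000. CXCL14 went both ways, from -2.13 to 1.88 over the 3 rats.

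Most IGF1 UMIs of the basal tables lay in these cells. IGF1, the ligand of the IGF axis, stood at 0 to 7.25 per 10000 with a median of 2.67, against 0.00181 to 0.0119 in the other cells. A UMI of IGF1 was found in 80.9% of collagen-high cells and 0.321% of the other cells. In the luminal sort 0.0252% of cells held one. The 94 cells held 33.3 to 99.1% of all IGF1 UMIs of a table in the 8 rats with at least 2 of them, with the lowest share in vehicle rat 1, which had 3 IGF1 UMIs in all. Of the binding proteins, IGFBP6 had a log2 ratio of 9.10 and IGFBP3 2.80, whereas IGFBP2 had -4.25 and IGFBP5 ran from -1.31 to 1.65. The median share of a table's UMIs that lay in collagen-high cells was 96.1% for COL1A1, 97.8% for DCN, 92.1% for FN1 and 45.8% for POSTN, although these cells held only 0.0265 to 6.76% of all UMIs of a table.

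The genes by which the study describes secretory basal cells, an epithelial subpopulation it names for its secreted proteins, went both ways. Of these 10 genes, 5 were higher in all 3 rats and 3 lower. PROCR, the protein C receptor known as a marker of multipotent mammary cells, stood at 0.878 to 16.7 per 10000 against 0.856 to 3.29 in the other cells, with a log2 ratio of 0.92. A PROCR UMI was found in 71.3% of collagen-high cells and 27.4% of the other cells. After thinning every cell to 3000 UMIs, which left 92 and 14261 cells, these shares were 41.3% and 17.4%, against 1.11% of luminal-sort cells without thinning. SPARCL1, a matricellular protein, had a log2 ratio of 1.62, IGFBP7 2.17, the transcriptional inhibitor ID3 2.48 and S100A4 1.46. In contrast NRG1 (-6.04) and SORBS2 (-1.24) were lower, and LRG1 had no UMI in the collagen-high cells.

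Since few cells are collagen-high, they held little of the UMIs of these genes. Their median share over the 9 rats was 1.71% of PROCR, 6.61% of SPARCL1, 5.61% of IGFBP7, 2.47% of ID3, 4.17% of S100A4 and 1.51% of EPAS1. In vehicle rat 2, whose collagen-high share was largest, the values were 12.03% of PROCR, 12.6% of SPARCL1, 18.0% of IGFBP7 and 28.4% of ID3. The other cells thus carried most UMIs of these secretory basal genes in all rats. DCN UMIs lay mostly in the collagen-high cells in all rats, and COL1A1 UMIs in all but TGFBRi rat 13. IGF1 UMIs lay mostly in them in all but TGFBRi rat 13 and vehicle rat 1.

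TGFβ pathway genes differed in direction by list between the collagen-high and the other cells. Beside these lists, 15.4% of all genes were higher and 42.9% lower in all 3 rats. Of 14 ligands, receptors and signal carriers 4 were higher and 3 lower in all 3 rats, with a median log2 ratio of -0.12. TGFB2 had 2.43 and the type II receptor TGFBR2 1.6. Among 19 target genes, 11 were higher and 5 lower: TGFBI (7.77) and POSTN (6.86) were higher, and TAGLN (-3.63), THBS1 (-4.29) and PMEPA1 (-2.50) lower. Of the 7 feedback inhibitors none was higher and 5 were lower. Mesenchymal transcription factors were higher in 9 of 11 cases, with TWIST2 at 8.00 and PRRX1 at 3.70, whereas SNAI2 had -2.40, being held by 10.6% of collagen-high cells. The estrogen receptor ESR1 had a UMI in 12.8% of collagen-high and 0.113% of the other cells, and the progesterone receptor PGR in none, which limits only the share of cells with a PGR UMI, to 3.19% of 94 cells.

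DPP4 divided the collagen-high cells, with a UMI in 45 cells and none in 49. Cells with a DPP4 UMI had a median depth of 17790 UMIs and those without 13245, and the part of depth in the division was not tested. With DPP4, PI16, a marker of adventitial fibroblasts, stood at 1.26 per 10000 of the summed UMIs and CD55, the complement decay factor, at 3.01. Without it they stood at 0.107 and 0.153. ASPN, asporin, had 4.02 against 0.782, CD34 1.17 against 0.169 and COL1A1 648 against 275.

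Without DPP4 the order was the opposite for a second group. IGFBP7 stood at 34.8 per 10000 without DPP4 and 5.81 with it, and 46 of 49 cells without DPP4 held IGFBP7 against 18 of 45. SPARCL1 had 6.51 against 1.56, the chemokine CXCL14 8.05 against 0.960, COL15A1, a collagen of the basement membrane zone, 1.76 against 0.309, COL4A1 10.8 against 2.68 and IGF1 4.81 against 1.74. The IGFBP7 and SPARCL1 of the collagen-high cells therefore lay mainly in the cells without DPP4. PROCR was held by 37 of 45 and 30 of 49 cells, at 2.73 and 3.71 per 10000. POSTN had medians of 92.8 and 14.8 over cells but 93.9 and 78.5 per 10000 of the summed UMIs. These groups were drawn from the same cells, so the values are a description. DPP4 was found in 3 of 12 cells in TGFBRi rat 9, in 5 of 9, 2 of 6, 20 of 40, 0 of 1 and 2 of 7 cells in TGFBRi rats 10 to 14, and in 1 of 2, 11 of 15 and 1 of 2 cells in vehicle rats 1 to 3.

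The same division was measured in other libraries. Whole SD glands, prepared without a sort, from the 5' end and with no keratin or PTPRC filter, held 8462 cells that passed the rule among 103524, 4.73 to 17.7% per rat. They came from 6 TGFBRi and 3 vehicle rats, and the labels do not say whether rats of the same number are the same animals. In all 9 rats the cells with a DPP4 UMI had less IGFBP7 than those without, with medians over rats of 4.42 and 34.4 per 10000 and a mean log2 ratio of -2.91 ± 0.42 (SD). SPARCL1 (-2.40 ± 0.43), IGF1 (-1.69 ± 0.30) and CXCL14 (-3.29 ± 0.89) were also lower in 9 of 9 rats. PI16 (3.27 ± 0.39), CD55 (2.56 ± 0.51), CD34 (1.56 ± 0.32) and ASPN (1.80 ± 0.41) were higher in 9 of 9. For each of these 8 genes the two-sided exact sign-flip permutation test over 9 rats gave p = 0.00391, the smallest it can give, and 0.00537 after Benjamini-Hochberg adjustment over the 11 genes tested. POSTN (exact p = 0.793), PROCR (exact p = 0.176) and SFRP4 (exact p = 0.359) did not pass.

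**Figure D4:**
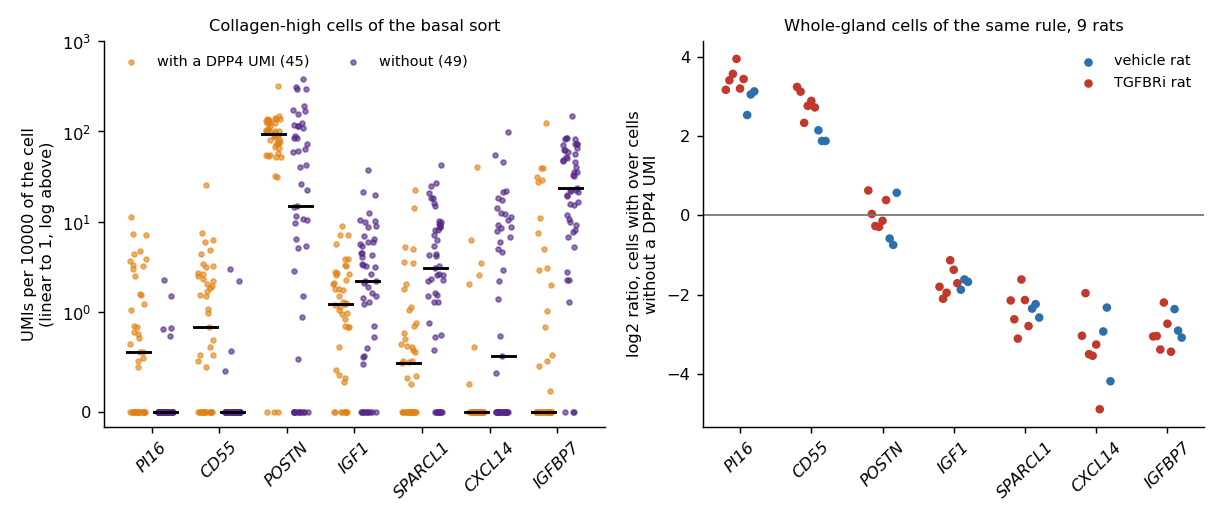
Cells with and without a DPP4 UMI. Left, UMIs per 10000 of the cell for 7 genes in the 45 collagen-high cells with a DPP4 UMI (orange) and the 49 without (violet), on an axis linear to 1 and logarithmic above, with medians as black lines. Right, log2 ratio of the level in whole-gland cells of the same rule with DPP4 over those without, 1 point per rat (blue for vehicle, red for TGFBRi). PI16 and CD55 lie above 0 and IGF1, SPARCL1, CXCL14 and IGFBP7 below 0 in all 9 rats.

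The levels were also compared with those of whole-gland cells, which the same counts had selected, and of the other basal-sort cells. Over 2066 genes with at least 100 UMIs in the collagen-high cells, log2 levels correlated with those whole-gland cells at Pearson r = 0.885 and Spearman rho = 0.825, and with the other cells of the basal sort at 0.495 and 0.532. These are correlations across genes, which are not replicates, and the second pair shares libraries and kit while the first does not. The genes were kept by their UMIs in the collagen-high cells, and COL3A1 and LUM are among them. Genes high only in the other cells, such as KRT14, were thus left out. The part of this choice in the difference between the pairs was not tested. In 7.05 to 16.9% of the whole-gland cells of a rat at least 2 keratin UMIs were counted. The rule also found 5 of 23784 cells in the luminal sort of the same 9 rats and 10 of 9880 in the basal sort of 6 ACI rats. In ACI rats there were 2, 3 and 2 such cells in TGFBRi rats 12, 15 and 16 and 2, 1 and 0 in vehicle rats 7, 8 and 9. The shares were 0.106 to 0.248% and 0 to 0.101% (two-sided exact permutation p = 0.1, the smallest that 3 against 3 allows). They did not overlap, but the nearest were 2 of 1894 cells (exact 95% interval 0.0128 to 0.381%) and 2 of 1984 (0.0122 to 0.364%), which counting error does not separate.

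Genes of the cell cycle made up little of the UMIs of either set of cells. A list of 14 cell-division genes summed to 0.0305% of UMIs in collagen-high and 0.0315% in the other cells (median log2 ratio 0.05). None of them was higher in all 3 rats and 2 were lower. For 15 S-phase genes the sums were 0.0244% and 0.0373%, with none higher and 11 lower. Over all genes 15.4% were higher and 42.9% lower in all 3 rats. Rare genes easily count as lower in so few cells, so these counts are not a trait of the cells by themselves. MKI67, a marker of cycling cells, had a UMI in 6 of 94 collagen-high cells, all from TGFBRi rats and 3 of them from rat 12, with 1 to 11 UMIs each. The 19 collagen-high cells of vehicle rats held none, 15 of them from vehicle rat 2. A count of 0 limits only the share of cells with a MKI67 UMI among these 19, to 15.8%, and the groups were not tested.

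TGFBRi against vehicle was tested within the collagen-high cells on UMIs summed per rat. Only TGFBRi rats 9 and 12 and vehicle rat 2 held at least 10 cells, so the planned test compared 2 rats with 1 and assumed that the single vehicle rat varies as the other pair does. Of 7133 genes with at least 10 UMIs, 17 passed an adjusted p of 0.1 (edgeR quasi-likelihood, Benjamini-Hochberg), which is 0.238% of genes, 9 higher (0.126%) and 8 lower (0.112%). Values of 66.7% of all tested genes did not overlap between these groups, as 1 rat against a pair readily gives. With the 8 cells of high keratin left out no gene passed in edgeR (222 with an unadjusted p under 0.05). A fit over the 8 rats with at least 2 cells was added after seeing the data, 5 TGFBRi and 3 vehicle rats. It called 23 of 7959 genes (0.289%), 9 higher (0.113%) and 14 lower (0.176%), and values of 9.17% of all genes did not overlap. Without vehicle rat 2 none passed in edgeR (959 genes with an unadjusted p under 0.05), without vehicle rat 3 there were 3 and without vehicle rat 1 there were 10, whereas leaving out TGFBRi rats 9, 10, 11, 12 and 14 gave 51, 36, 64, 14 and 54. DESeq2 called 82 genes higher and 23 lower over all 8 rats, but gave an adjusted p for only 700 of the 7959 genes. The edgeR fits share libraries. They had 6 called genes in common, 35.3% of the first and 26.1% of the second, among them CCL19, CXCL9 and CYP1B1.

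No collagen or fibroblast gene was among those called, but so few genes were called in all that counts of 0 say little about lists of this size. COL1A1 stood at 258, 606 and 240 per 10000 in vehicle rats 1, 2 and 3, and at 185, 424.7, 495, 574 and 211 in TGFBRi rats 14, 9, 10, 12 and 11. The groups overlapped, with vehicle rat 2 highest and TGFBRi rat 14 lowest. The fitted log2 fold change was -0.21 over the 3 rats (edgeR, adjusted p = 0.9499) and 0.30 over the 8 (DESeq2 SE 0.47, edgeR, adjusted p = 0.885). None of the 15 collagens tested other than COL3A1 passed in either fit, with medians of -0.61 and -0.16, beside 0.02 and 0.16 over all genes. None of the 9 fibroblast markers, 14 collagen-processing genes, 22 ligands or 9 IGF axis genes passed in either fit. The list of 19 TGFβ targets had 1 gene called in each fit, CCN1 in the first and SKIL in the second, with medians of -0.31 and -0.26.

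CCN1, a matricellular protein induced by TGFβ and serum, stood at 0.439, 7.605 and 6.19 per 10000 in vehicle rats 1, 2 and 3 and at 0.586 to 2.36 in the 5 TGFBRi rats. Vehicle rat 1, with 2 cells, lay lowest, so the groups overlapped. CCN1 passed over the 3 rats (log2 fold change -2.36, edgeR, adjusted p = 0.0457) and not over the 8 (-1.56, adjusted p = 0.232). SKIL, a feedback inhibitor of SMAD signalling, was lower over the 8 rats (-2.31, edgeR, adjusted p = 0.0916) and did not pass over the 3 (-1.86, adjusted p = 0.551). In whole-gland cells of the same rule CCN1 had -0.73 (edgeR, adjusted p = 0.0130) and SKIL -0.25 (adjusted p = 0.601).

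Over the 8 rats, 6 genes passed with a mean of at least 20 UMIs per rat and groups that did not overlap. ANGPTL4, a secreted inhibitor of lipoprotein lipase, stood at 2.42, 2.83 and 1.18 per 10000 in vehicle rats 1, 2 and 3, and at 7.55, 9.15, 9.96, 4.42 and 10.3 in TGFBRi rats 9, 10, 11, 12 and 14. Every TGFBRi rat lay above every vehicle rat, with a log2 fold change of 2.09 (DESeq2 SE 0.44, edgeR, adjusted p = 0.0460). IDI1, an enzyme of the cholesterol pathway, had 0.659, 0.575 and 0.884 in vehicle rats and 1.76 to 4.12 in TGFBRi rats, a log2 fold change of 2.47 (DESeq2 SE 0.55, adjusted p = 0.0336). ZFAND2A, a stress-induced proteasome factor, rose by 2.57 (DESeq2 SE 0.62, adjusted p = 0.0336) and the mitochondrial gene ATP6 by 1.63 (DESeq2 SE 0.28, adjusted p = 0.0961). Vehicle rats 1 and 3 had 2 collagen-high cells each, with medians of 22768 and 16962.5 UMIs per cell. The levels of IDI1 and ZFAND2A in these rats, and that of ANGPTL4 in vehicle rat 3, thus rest on a few UMIs.

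HK2, the glycolytic enzyme hexokinase 2, and MYH11, smooth muscle myosin, were lower. HK2 stood at 10.5, 8.48 and 12.7 per 10000 in vehicle rats 1, 2 and 3 and at 2.02 to 4.65 in TGFBRi rats, a log2 fold change of -1.53 (DESeq2 SE 0.37, edgeR, adjusted p = 0.0961). MYH11 stood at 5.71, 3.15 and 8.84 against 0 to 1.53, a log2 fold change of -2.51 (DESeq2 SE 1.13, adjusted p = 0.0612). MYH11 is also a gene of the surrounding basal cells, which held it at 17.1 per 10000. The list of basal markers summed to 3.55 to 34.3 per 10000 in the collagen-high cells of vehicle rats and 1.07 to 10.98 in those of TGFBRi rats, and 3 of the 8 collagen-high cells with high keratin came from the 19 cells of vehicle rats. With these 8 cells left out, a choice made after seeing the data, MYH11 (-1.52, edgeR, adjusted p = 0.433) and HK2 (-1.01, adjusted p = 0.489) did not pass, while ANGPTL4, IDI1, ZFAND2A and ATP6 did (edgeR, adjusted p = 0.0596 to 0.0847). Vehicle rats 1 and 3 had only 1 collagen-high cell each in that fit. The other cells of the same tables moved in the same direction for several of these genes. They held HK2 at 7.39 to 15.03 per 10000 in vehicle rats and 2.39 to 4.79 in the 6 TGFBRi rats (log2 fold change -1.32, edgeR, adjusted p = 0.0202), and MYH11 (-1.35, adjusted p = 0.0174), ATP6 (1.08, adjusted p = 0.0115) and IDI1 (1.00, adjusted p = 0.0379) also passed there. ANGPTL4 (0.41, edgeR, adjusted p = 0.181) and ZFAND2A (1.13, adjusted p = 0.126) did not. The effect in the collagen-high cells was not called different from that in the other cells for any of the 6 genes over the 8 rats (edgeR, adjusted p = 0.191 to 1). With TGFBRi rat 13 and its single collagen-high cell added, ATP6 (1.39, edgeR, adjusted p = 0.451) and HK2 (-1.53, adjusted p = 0.101) did not pass. None of the 6 genes passed when any 1 of the 3 vehicle rats was left out. ANGPTL4, IDI1, ZFAND2A and MYH11 passed without each of the 5 TGFBRi rats in turn. HK2 and ATP6 passed in 2 of the 8 fits, and lost the call without TGFBRi rat 9 (edgeR, adjusted p = 0.153 and 0.134), rat 10 (0.146 and 0.151) and rat 12 (0.126 and 0.156) as well.

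**Figure D5:**
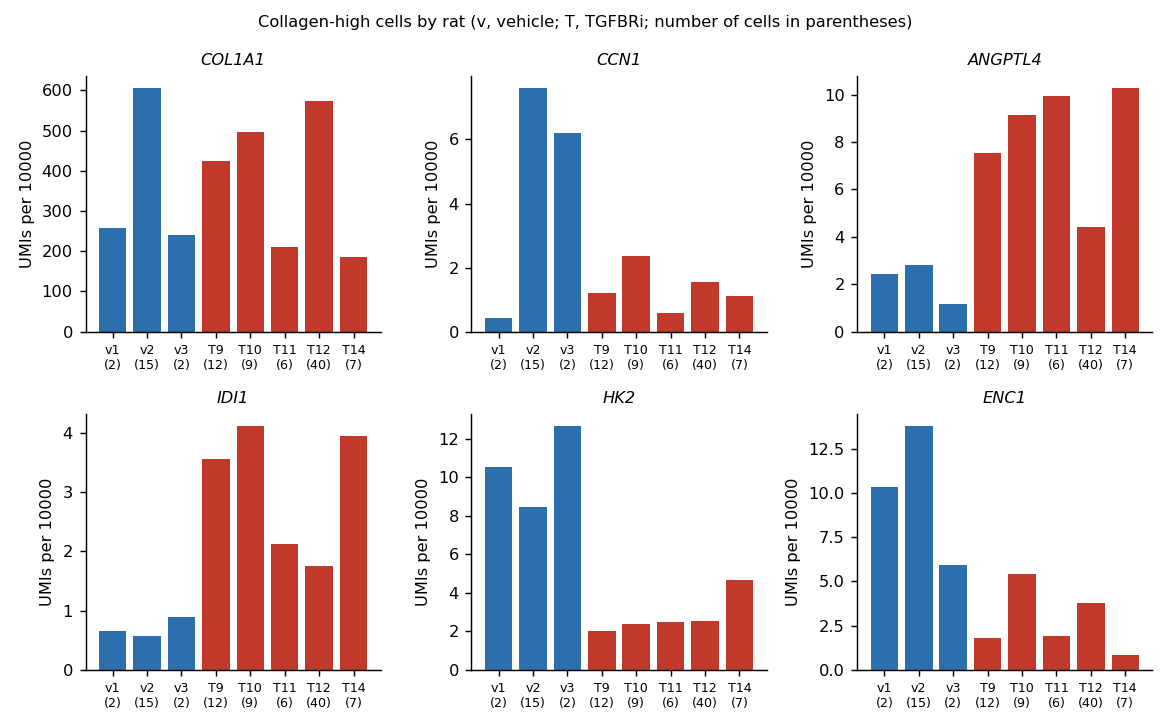
UMIs per 10000 in collagen-high cells by rat for 6 genes (blue for vehicle, red for TGFBRi, number of cells in parentheses), in the 8 rats with at least 2 cells. COL1A1 and CCN1 overlapped between the groups, whereas ANGPTL4 and IDI1 were higher and HK2 and ENC1 lower in each TGFBRi rat than in any vehicle rat; ENC1 passed over the 3 rats with at least 10 cells and not over the 8.

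In the 3-rat fit the genes meeting the same naming rule were CCL19, CYP1B1, PLA2G2A, LGALS7, MGP, CCL7, HSPA1B and GSN, higher with TGFBRi, and CXCL9, CCN1, ENC1, ADAMTS1 and LOC100360841, lower. All 17 called genes kept their direction over the 8 rats, which include the 3, and 3 of the 17 had groups that did not overlap there. The log2 fold change of LGALS7 fell from 3.70 over the 3 rats to 0.37 over the 8, and that of GSN from 1.63 to 0.80. Neither passed over the 8 (edgeR, adjusted p = 0.916 and 0.591). CYP1B1, a steroid-metabolizing cytochrome, was at 0 in all 3 vehicle rats and at 0.146 to 3.94 per 10000 in the 5 TGFBRi rats of the 8, so its fitted fold change is no bound. CXCL9, an interferon-induced chemokine, stood at 1.10, 4.08 and 0 in vehicle rats 1, 2 and 3 and at 0 to 0.305 in TGFBRi rats. It was called over the 3 rats and over the 8, and its 2 groups overlapped at vehicle rat 3. MGP, matrix Gla protein, showed how far 1 rat could decide. It stood at 292, 5.33 and 0 in vehicle rats and at 28.2 to 360 in TGFBRi rats, passed over the 3 rats (3.04, edgeR, adjusted p = 0.00494) and did not over the 8 (0.48, adjusted p = 0.909).

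In whole-gland cells of the same rule, 4377 of 15247 genes passed (28.7%), 1944 higher (12.8%) and 2433 lower (16%), and 3637 (23.9%) did not overlap between the groups. Without vehicle rat 2 there were 2867. Of the 23 genes called in the collagen-high cells over 8 rats, 5 passed there in the same direction and 4 in the opposite. ZFAND2A fell in whole-gland cells (-1.59, edgeR, adjusted p = 7.72e-05) and CYP1B1 did too (-0.72, adjusted p = 0.0191), and ANGPTL4 (-0.34, adjusted p = 0.121) and IDI1 (-0.88, adjusted p = 0.0821) had the sign opposite to that in the basal sort, the second past the threshold. TGFβ targets that fell in whole-gland cells were CCN2 (-1.76, edgeR adjusted p = 0.00800), CCN1, PMEPA1 (-0.88, adjusted p = 0.00518) and TIMP1 (-1.40, adjusted p = 0.000498), 4 of 19, and none rose, beside the 16% of all genes that fell. PROCR fell as well, from 5.72 to 6.15 per 10000 in 3 vehicle rats to 2.48 to 4.90 in 6 TGFBRi rats (log2 fold change -1.06, edgeR, adjusted p = 0.00198). In the collagen-high cells PROCR stood at 0.878, 2.83 and 0.884 in vehicle rats and 2.35 to 5.95 in TGFBRi rats (1.25, edgeR adjusted p = 0.328). Of 9 dissociation-stress genes 7 were called higher with TGFBRi in whole-gland cells, FOS among them (1.26, edgeR adjusted p = 0.00258). In the other cells of the basal sort the same list went the opposite way, at 45.4 to 108.3 per 10000 in TGFBRi and 132.3 to 135.9 in vehicle rats, with 4 of 9 genes called lower, where 12.9% of all genes were. In the collagen-high cells it overlapped, at 33.4 to 169 and 49.5 to 140.8. The part of these genes in the other differences was not tested.

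The effect of TGFBRi was also compared between the collagen-high and the other cells of the same rats. With the rat as a block and the 3 rats with at least 10 cells, 19 of 13419 genes differed (0.142%), 11 with a more positive effect in the collagen-high cells and 8 with a more negative one. EFEMP1, an elastic fibre protein, had a difference of 4.18 on the log2 scale, and CLU, clusterin, had 2.04, CXCL9 -3.49, LOXL2 -3.11 and CCN1 -1.92. Within the collagen-high cells alone, the effect over the 3 rats was 1.14 for EFEMP1 (edgeR, adjusted p = 0.566), -0.36 for LOXL2 (adjusted p = 0.952) and 2.91 for CLU (adjusted p = 0.159), none of which passed. The other cells held 6 UMIs of LOXL2 in vehicle rat 2, against 139 in TGFBRi rat 12, and 10, 4 and 19 UMIs of EFEMP1 in TGFBRi rats 9 and 12 and vehicle rat 2. Over the 8 rats EFEMP1 (2.76, edgeR, adjusted p = 0.0126) and CXCL9 (-3.34, adjusted p = 0.000587) passed, whereas CLU (1.25, adjusted p = 0.996), LOXL2 (-0.73, adjusted p = 1) and CCN1 (-0.92, adjusted p = 1) did not. With no replicate block, 1 gene passed over the 3 rats, EFEMP1, so the other calls rest on pairing by rat. Over the 8 rats with at least 2 cells, 30 of 14542 genes (0.206%) differed with the block and none without it, where 545 genes had an unadjusted edgeR p under 0.05. In the other cells alone, 3804 of 14482 genes (26.3%) passed over 9 rats. In summed libraries of a sort, fewer transcripts per cell and fewer cells of a kind cannot be told apart.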

How the data were processed

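Single-cell libraries of sorted cells were made by the authors with a 3' kit and those of whole glands with a 5' kit, and the submitters' processing notes name Cell Ranger 4.0.0 and 7.0.0, Seurat 4.0.0 and 4.1.1 and the rat build rn6. The deposited tables hold UMI counts per gene and cell, which the authors had filtered (at least 100 genes per cell, genes in at least 10 cells, at most 15% mitochondrial reads, and in sorted cells no PTPRC read and at least 2 keratin reads) but not normalized. The cells, gene lists and several comparisons were chosen with earlier results of these data known.

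UMIs were summed per rat over the collagen-high cells and over the other cells of its table. Levels are UMIs per 10000 UMIs. Counts of genes higher or lower than in the other cells used levels with nothing added, a choice made after seeing the data. Genes with at least 10 UMIs over the rats were tested with edgeR 4.0.16 (quasi-likelihood, TMM scaling) in R 4.3.3, with Benjamini-Hochberg adjustment over all genes tested and a threshold of 0.1, and with DESeq2 1.42.0 as an alternative. The planned test kept rats with at least 10 collagen-high cells, which left 2 TGFBRi rats and 1 vehicle rat. In the comparison of effects between collagen-high and other cells the rat was a block, since both come from the same animal. Shares of cells were compared by exact permutation over rats (scipy 1.17.1). Binomial intervals are exact (Clopper-Pearson, 95%), and intervals and limits for a count of 0 (3 counts) cover counting error only. Doublets were scored with Scrublet in scanpy 1.11.5 and kept. Scripts were tested on simulated data.

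Besides genes of the lists, the text names the 15 genes most in excess in collagen-high cells (at least 100 UMIs there) and the 5 most depleted (at least 1000 UMIs in the other cells), each in the same direction in all rats with at least 10 collagen-high cells. From each test it names up to 10 genes per direction that passed, with a mean of at least 20 UMIs and groups that did not overlap in UMIs per 10000 or, for a difference of effect, in the log2 ratio of collagen-high to other cells of a rat with 0.5 UMI added. Alternatives were other thresholds of the rule, DCN, thinning, levels per 10000, Scrublet scores, filters, DESeq2 and each rat left out. Some genes that met these rules are not reported here. Vehicle and TGFBRi rats carry different numbers, so none are paired across treatments.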

Additional observations from a re-analysis of the deposited data

Results flagged for a closer look

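Among 24 groups of rats checked, 6 had a highest rat far from the others, where chance gives about 1 in 20 groups. The share of collagen-high cells was 1.35% in TGFBRi rat 12. Among the 5 TGFBRi rats with at least 2 such cells, levels per 10000 UMIs stood apart for SPARCL1 (11.7), MGP (359.7) and HK2 (4.65) in rat 14, for IGF1 (7.25) in rat 10 and for ELN (20.7) in rat 12.

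The effect of TGFBRi differed between collagen-high and other cells for 19 genes over 3 rats (edgeR with the rat as a block, adjusted p of 0.1 or less). Of those reported here, the log2 effect in collagen-high cells minus that in other cells was positive for GDF15 (12.23), CYP1B1 (11.72), EFEMP1 (4.18), FBXO32 (3.73), LGALS7 (3.08), CXCL12 (2.89), MGP (2.78), DES (2.34) and CLU (2.04). It was negative for CXCL9 (-3.49), LOXL2 (-3.11), GCSH (-2.46), GAS7 (-2.44), FABP5 (-1.96) and CCN1 (-1.92). The values of GDF15 and CYP1B1 are no bounds, since both had no UMI in the collagen-high cells of vehicle rat 2, the only vehicle rat in this fit. FBXO32, LGALS7 and DES had 2, 5 and 8 UMIs there. FBXO32, with 5 and 6 UMIs in the collagen-high cells of the 2 TGFBRi rats, reached the mean of 20 UMIs only through the other cells. The same held for GDF15, with 2 and 32 UMIs in those cells. It also held for CXCL12, with 15 and 32 UMIs in them and 11 in the collagen-high cells of vehicle rat 2. LOXL2 had 6 UMIs in the other cells of that rat. With 1 vehicle rat, the group and that rat cannot be told apart. Over the 8 rats with at least 2 collagen-high cells GDF15, CYP1B1, EFEMP1, CXCL12, MGP and CXCL9 also passed. LGALS7 turned sign there (-0.93, edgeR, adjusted p = 1), and FBXO32 (2.66), DES (1.46), CLU (1.25), LOXL2 (-0.73), GCSH (-1.99), GAS7 (-1.68), FABP5 (-0.68) and CCN1 (-0.92) kept their sign and did not pass (edgeR, adjusted p = 0.224 to 1).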

How the results depend on the processing

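The difference in share of collagen-high cells kept its sign under the other definitions (-0.352 to -0.534 percentage points, exact p = 0.488 to 0.738). Leaving out 1 rat gave -0.895 to 0.343 points, the last without vehicle rat 2, and leaving out TGFBRi rat 12 and vehicle rat 2 together gave 0.178 (exact p = 0.286). The count of 17 genes over 3 rats became 93 with no filter, 2 over rats with at least 5 collagen-high cells, 0 with thresholds of 10 COL3A1 and 2 LUM UMIs (331 with an unadjusted edgeR p under 0.05), 57 with 40 and 5, 26 with the DCN rule, and 0 without cells of high keratin. DESeq2 called 15 of 2708 genes with an adjusted p there. Over 8 rats, 9 genes higher and 14 lower became 82 and 23 with DESeq2 (700 genes with an adjusted p), 70 and 59 with no filter, 46 and 44 over all 9 rats, 22 and 10 without cells of high keratin, and 0 to 38 and 0 to 26 with 1 rat left out. Among the genes named for TGFBRi against vehicle in collagen-high cells, 43 of the alternative values of the 8-rat fit stayed past the threshold and 28 did not. In the 3-rat fit, with its single vehicle rat, some alternative values stayed past the threshold and others did not. Leaving out the 6% of cells with the highest Scrublet scores removed none of the collagen-high cells. Its values in the 3-rat fit therefore repeat the main values and are no check. None of the alternative values of either fit changed sign. Among those named for a difference of effect, 23 stayed and 24 did not over 3 rats, and 16 and 47 over 8 rats, and LGALS7 changed sign over the 8 rats (-0.93, edgeR, adjusted p = 1). Against the other cells, 2250 genes were higher and 6261 lower in all 3 rats with nothing added, and 5776 and 3775 with 0.5 UMI added. The count of genes called for TGFBRi against vehicle in whole-gland cells of the same rule ranged from 2867 to 5491 with 1 rat left out.

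With no replicate block, the differences of effect fell from 19 to 1 over 3 rats (271 with an unadjusted edgeR p under 0.05) and from 30 to 0 over 8 rats (545). Pairing is by animal. With 1 rat left out the blocked count over 8 rats ranged from 12 to 49. Over 3 rats no rat could be left out, since 1 rat per group or a single treatment remained, and rats with at least 20 collagen-high cells were only TGFBRi rat 12, so these were not run. Few cells per rat limit all tests in collagen-high cells.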

Other observations

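The effect of TGFBRi over the 8 rats also differed between collagen-high and other cells for genes of other functions. Among genes whose log2 ratios of collagen-high to other cells did not overlap between the groups these were EGR2 (2.24) and CTHRC1 (1.81), with a more positive effect in collagen-high cells, and ALG6, S100A3 (-3.35), FLRT2 (-2.63), ZC3HAV1 (-1.90) and HSPB8 (-1.69), with a more negative one, all on the log2 scale (edgeR with the rat as a block, adjusted p = 0.0546 to 0.0983). The levels of EGR2 and S100A3 in the collagen-high cells themselves overlapped between the groups. The mean UMIs of the naming rule counted the other cells too, and EGR2, ALG6, S100A3, FLRT2 and ZC3HAV1 reached it only through them. In the collagen-high cells ALG6 had no UMI in TGFBRi rats and stood at 0.175 to 0.295 per 10000 in vehicle rats. S100A3 stood at 2.06 in vehicle rat 3, which had 2 such cells, and at 0 to 0.153 in the remaining rats. These differences thus rest on a few UMIs. Each of the 7 genes lost its call without at least 1 of the vehicle rats. Of the 8 fits with 1 rat left out, CTHRC1 passed in 5, EGR2 in 3, S100A3, FLRT2, ZC3HAV1 and HSPB8 in 2 each and ALG6 in 0. CTHRC1 ran from 1.30 without vehicle rat 3 to 3.36 without vehicle rat 2, and S100A3 from -4.55 without vehicle rat 2 to -1.85 without vehicle rat 3. Without vehicle rat 2 no EGR2 UMI was left in the collagen-high cells of vehicle rats. ALG6 is named without its fitted value, which is no bound where a group has no UMI. Of the single cells, 1 from TGFBRi rat 14 held 1167 of the 1174 APOD UMIs found in the 94 cells.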
